A study of Homo sapiens with 12 samples.

Results

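Immune checkpoint ligands are surface or secreted proteins with which a tumor cell can restrain T cells, NK cells or macrophages. The group described here was defined by name and held 8 genes: CD274, PDCD1LG2, CD276, VTCN1, CD47, LGALS9, TNFRSF14 and CD200. All 8 were found among the 43769 genes of the RNA sequencing count table, and 6 of them passed the filter on low counts that left 15828 genes for testing. The cells were SK-N-DZ, a MYCN amplified, ARID1A wildtype neuroblastoma cell line, from a clonal line that carried a doxycycline inducible shRNA to ARID1A in a puromycin selected lentiviral vector. ARID1A is a subunit of the SWI/SNF chromatin remodeling complex, and the comparison asked how its knockdown and IFNγ stimulation, alone and together, changed gene expression. The 4 groups of 3 libraries were untreated cells (C, genotype label WT), cells given doxycycline for 4 days (D, genotype label shARID1A), cells given IFNγ for 24 h (I, genotype label WT) and cells given both (DI, genotype label shARID1A). No group carried a hairpin to another target, so an effect of the hairpin on ARID1A and an effect of doxycycline itself cannot be told apart, and 1 clone limits the model.

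CD274 encodes PD-L1 and PDCD1LG2 encodes PD-L2, both ligands of the T cell receptor PD-1. CD276 (also called B7 homolog 3) and VTCN1 (B7 homolog 4) are further B7 family members that dampen T cells. TNFRSF14, the herpesvirus entry mediator, engages BTLA and CD160 on lymphocytes, and LGALS9 encodes the lectin galectin-9, a ligand of TIM-3. CD47 is the "don't eat me" signal read by SIRPα on macrophages, and CD200 restrains myeloid cells through its receptor CD200R1. IFNγ signals through JAK kinases to the transcription factor IRF1, and this route is known to induce CD274 in many tumor cells.

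The libraries held 16469832 to 21790869 counts, so that 3 counts, the floor used for detection, equaled 0.135 to 0.187 CPM (counts scaled to a common library size). ARID1A itself was 183 ± 16.4 CPM in C against 171 ± 22.1 CPM in D, and 196 ± 5.71 CPM in I against 144 ± 9.69 CPM in DI (mean ± SD, n = 3 for these and all group values below). By edgeR's quasi-likelihood test its log2 fold change was -0.09 for D vs C (adjusted p = 0.788) and -0.44 for DI vs I (SE 0.11, adjusted p = 0.115). The difference in DI vs I passed with the replicate number as a block (edgeR adjusted p = 0.0111) and in DESeq2 (adjusted p = 0.016), and the one in D vs C did not in either (0.509 with the block), so the label shARID1A of group D was not matched by a called fall of ARID1A mRNA in these libraries. The paper reports loss of ARID1A in its SK-N-DZ knockdown line, with mRNA measured by qPCR and lower protein on Western blots. The 10 adrenergic neuroblastoma markers, among them HAND2 and TH, summed to 3567 to 5158 CPM per library. Within that sum TH, the first enzyme of catecholamine synthesis, was 41.7 ± 36.1 CPM in C against 3.02 ± 3.49 in D, and 27.5 ± 28.9 in I against 1.91 ± 1.16 in DI. DBH and HAND2 also had lower means in the groups given doxycycline, DBH at 345 ± 89.7 in C against 181 ± 165 in D, and HAND2 at 657 ± 264 against 424 ± 127. GATA3 had a higher mean there, at 589 ± 38.6 in C against 712 ± 77.5 in D. The part of these markers in the doxycycline differences below was not tested. CD3E and CD3D were at 0 in every library, as was the endothelial marker PECAM1, and the summed leukocyte, endothelial and epithelial lists reached at most 1.50, 2.95 and 2.33 CPM, while the 4 fibroblast markers, mostly PDGFRA, summed to 9.97 to 48.2 CPM.

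For CD274, which went from near 0 to clear detection with IFNγ, bases upstream of its RefSeq start (GRCh38.p14) are shown with the matches to interferon motifs. The window chr9:5450292-5450502, on the plus strand, ends where the GENCODE 29 exons of the gene begin. The 39 bases between its end and the RefSeq start are left out, and positions are counted from the RefSeq start. Capitals mark a GAS-type match (TTCNNNGAA, a palindrome bound by STAT dimers, 125 to 117 bases before the start) and a pair of overlapping matches on the minus strand to GAAANNGAA, a core of the interferon stimulated response element read by IRF factors (207 to 199 and 201 to 193 bases before the start). The 250 bases upstream of the RefSeq start of CD47, chr3:108091032-108091281 on the minus strand, are also shown and hold neither motif. All of them lie within the GENCODE 29 span of the gene but outside its exons. The CD47 window thus misses the bases upstream of the GENCODE start, and its lack of a match cannot be set against the matches of CD274.
CD274: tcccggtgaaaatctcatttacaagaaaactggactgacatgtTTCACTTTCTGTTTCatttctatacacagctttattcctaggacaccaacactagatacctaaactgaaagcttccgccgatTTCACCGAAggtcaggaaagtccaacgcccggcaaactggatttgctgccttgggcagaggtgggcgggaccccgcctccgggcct
CD47: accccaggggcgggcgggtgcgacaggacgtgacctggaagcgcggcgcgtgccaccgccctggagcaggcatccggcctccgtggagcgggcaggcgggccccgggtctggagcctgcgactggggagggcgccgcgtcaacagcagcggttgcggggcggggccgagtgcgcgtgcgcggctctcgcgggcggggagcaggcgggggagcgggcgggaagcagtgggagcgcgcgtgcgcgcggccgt

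Of the 7 members with an entry in the RefSeq promoter table, CD274 was the 1 with a match to either motif within 250 bases of a listed start. For TNFRSF14, CD47, CD200, CD276 and LGALS9 all 250 bases of each window lay within the gene's own GENCODE span, against 39 for CD274 and 33 for VTCN1. Exons of the gene covered 146 bases of the TNFRSF14 window and all 250 for CD200 and LGALS9. The windows of these members thus left out the bases upstream of the GENCODE start. Their lack of a match cannot be compared with the matches of CD274. Over all 35116 promoters of this length in the table, 6.57% held TTCNNNGAA and 6.88% held GAAANNGAA on either strand. A match describes letters in a window and does not show that a factor bound there.

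Upon IFNγ stimulation, 3 of the 6 tested members rose, CD274, TNFRSF14 and CD47, both without doxycycline (I vs C) and with it (DI vs D). In I vs C 2.10% of all tested genes were called higher at an adjusted p under 0.05, and in DI vs D 1.67% were. CD274 and TNFRSF14 passed the filter on low counts through their IFNγ libraries, while PDCD1LG2 and LGALS9 fell below it. The counts out of 6 therefore depend in part on the filter, and the members were chosen with earlier results of these data known. Without the filter 3 of the 8 members were called in each comparison. With the replicate number as a block, which raised the number of all genes called to 953 in I vs C and 706 in DI vs D (from 350 and 273), the members called were still these 3. The groups did not overlap for 4 of the 6 tested members in either comparison, against 15.1% of all tested genes in I vs C and 9.55% in DI vs D. The fourth of these was CD276, which is described below.

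**Figure D1:**
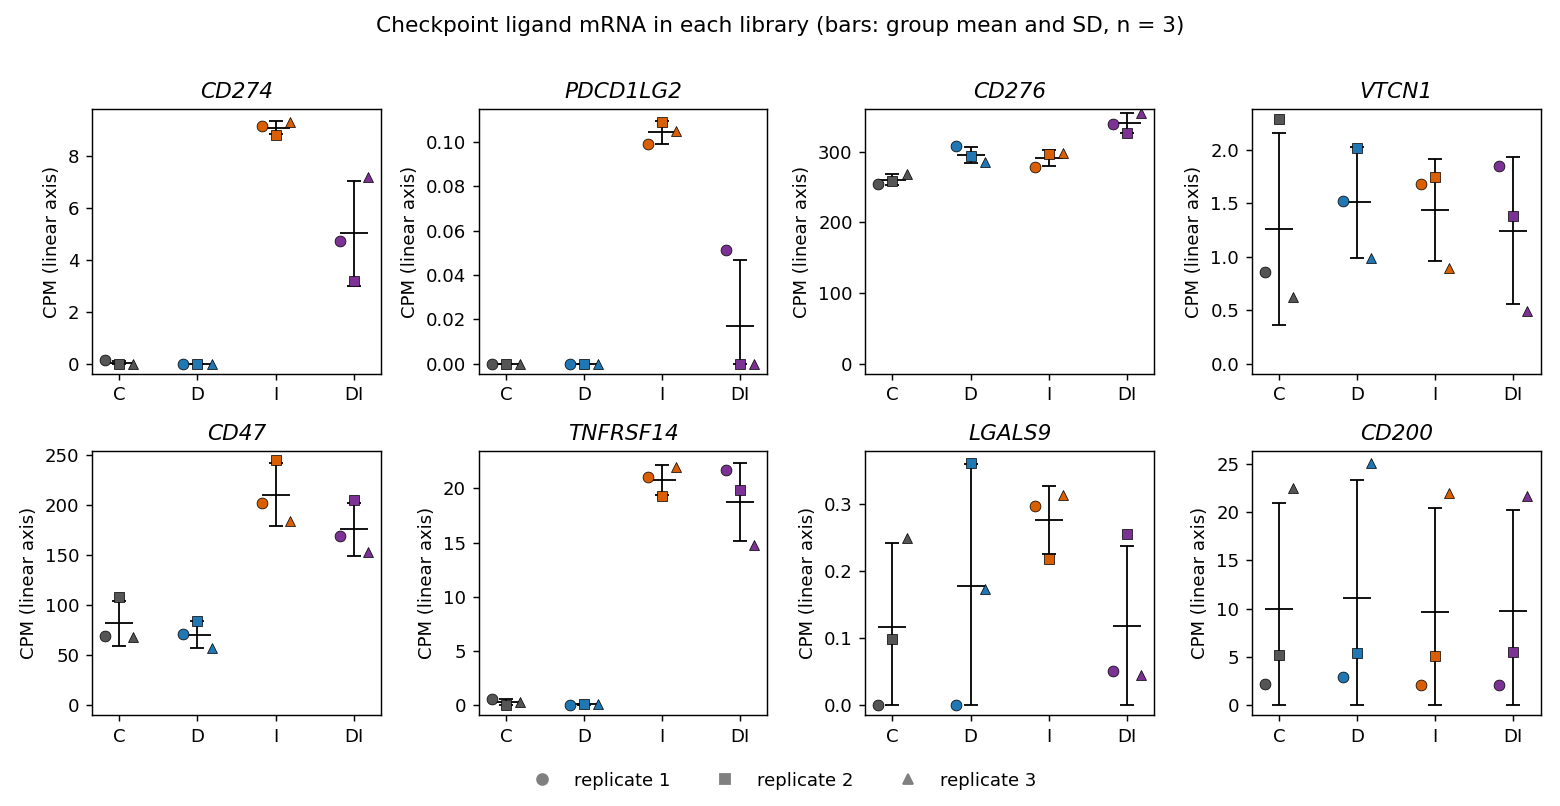
CPM of the 8 checkpoint ligands (y axis, linear, each panel with its own scale) in the 12 libraries by group (x axis), with symbols for the replicate number and black bars for the group mean and SD (n = 3), cut at 0. CD274, TNFRSF14 and CD47 stood higher in every IFNγ library than in any library without it, and CD200 split by replicate number in all 4 groups.

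CD274 (chr9:5450503-5470566, plus strand, GRCh38) was nearly silent without IFNγ. Its raw counts were 2, 0 and 0 in C and 0 in all 3 D libraries, against 185, 162 and 178 with IFNγ alone and 92, 62 and 160 with both agents. All 6 libraries with IFNγ lay above all 6 without it. In RNA of whole cultures, more cells with the transcript and more transcript per cell cannot be told apart. The level in I was 239-fold that in C (95% interval 65.8 to 1978, exact, counting error only), and it was at least 54.2-fold without C replicate 1, which held both C counts, and 147-fold without C replicate 2. With doxycycline present, DI was at least 32.0-fold above the 3-count floor per library in D. Both comparisons passed edgeR's quasi-likelihood test (adjusted p = 0.000547 in I vs C and 0.000652 in DI vs D).

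PDCD1LG2, the neighbor of CD274 (chr9:5510570-5571254, plus strand, 40.0 kb beyond the end of CD274), stayed below the filter. It had no count in the 6 libraries without IFNγ, 2 counts in each of the 3 I libraries and 1, 0 and 0 counts in DI. All 12 libraries were under the 3-count floor, so no fold is given, and a difference was not detectable at this depth.

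TNFRSF14 (chr1:2555639-2565382, plus strand) was likewise near 0 without IFNγ. Its counts were 10, 0 and 5 in C and 0, 2 and 2 in D, against 425, 353 and 419 with IFNγ alone and 423, 387 and 328 with both. The IFNγ libraries lay 14.8 to 22.0 CPM and the others at or below 0.615 CPM. The ratio of I to C was 72.6 (interval 43.9 to 130), 150 without C replicate 1 and 44.7 without C replicate 2. The ratio of DI to D was 268 (interval 104 to 984), and 170 without D replicate 1. The adjusted p of edgeR's quasi-likelihood test was 0.000328 in I vs C and 0.000156 in DI vs D. An antisense gene, TNFRSF14-AS1, overlaps its exons, and since the strand setting of the counting is not given in the sources used here, reads of the pair cannot be told apart; the antisense gene had 28 counts in all libraries together against 2354.

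CD47 (chr3:108043094-108091862, minus strand) differed from these in that it was well expressed before stimulation. It measured 69.4, 108 and 68.4 CPM in the C libraries and 70.9, 83.9 and 56.8 CPM in the D libraries. With IFNγ it measured 202, 245 and 184 CPM, and with both agents 169, 205 and 153 CPM. The lowest IFNγ library was above the highest library without IFNγ. CD47 rose 2.57-fold in I vs C (log2 fold change 1.36, SE 0.21, edgeR adjusted p = 0.00399) and 2.49-fold in DI vs D (log2 fold change 1.31, SE 0.21, edgeR adjusted p = 0.00607). Within same-numbered pairs of libraries the ratio of I to C was 2.91, 2.27 and 2.69, and that of DI to D was 2.39, 2.44 and 2.68.

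The remaining tested members did not pass the test for IFNγ. CD276 was 260 ± 7.51 CPM in C and 291 ± 11.0 CPM in I, a log2 fold change of 0.16 (SE 0.08, edgeR adjusted p = 0.675), and its log2 fold change in DI vs D was 0.20 (edgeR adjusted p = 0.511). VTCN1 (chr1:117143587-117210960, minus strand) was low, at 1.26 ± 0.898 CPM in C against 1.44 ± 0.476 CPM in I, and 1.51 ± 0.517 CPM in D against 1.24 ± 0.687 CPM in DI, with overlapping groups. Its 95% interval for I vs C ran from -0.97 to 1.35 on the log2 scale, so an increase of more than 2-fold lies within it. CD200 was 9.96 ± 11.0 CPM in C and 9.70 ± 10.7 in I, and its interval of -2.31 to 2.24, from the fit without pairing, was wider still. Within same-numbered pairs its ratio of I to C was 0.966, 0.973 and 0.976, and that of DI to D was 0.706, 1.03 and 0.862.

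LGALS9 (chr17:27629798-27649560, plus strand) was below the filter like PDCD1LG2. Its counts were 0, 2 and 4 in C and 0, 7 and 3 in D, then 6, 4 and 6 with IFNγ alone and 1, 5 and 1 with both agents. The ranges overlapped between all 4 groups, and the largest level was 0.362 CPM. Its near-identical copies LGALS9B and LGALS9C had no count in any library, and how reads shared between the copies were counted is not given in the sources used here.

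Set in order by level per length, as CPM per kb of exon, the members spanned a wide range in the I libraries. CD276 was at 52.5 ± 1.98 and CD47 at 25.6 ± 3.80 CPM per kb, and neither overlapped a neighbor in this order. TNFRSF14 followed at 3.34 ± 0.221, CD200 at 3.24 ± 3.58 and CD274 at 2.22 ± 0.0608, and CD200 overlapped both TNFRSF14 and CD274. VTCN1 came next at 0.476 ± 0.157, and LGALS9 (0.0484) and PDCD1LG2 (0.0441) were at the bottom with overlapping values. In C the order of the first was the same, CD276 at 47.0 ± 1.36 and CD47 at 9.96 ± 2.73 CPM per kb, but TNFRSF14 (0.0496) and CD274 (0.00997) lay below VTCN1 (0.415). Exon length here is that of all annotated exons of a gene, which understates the level of genes with long, rarely used exons.

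**Figure D2:**
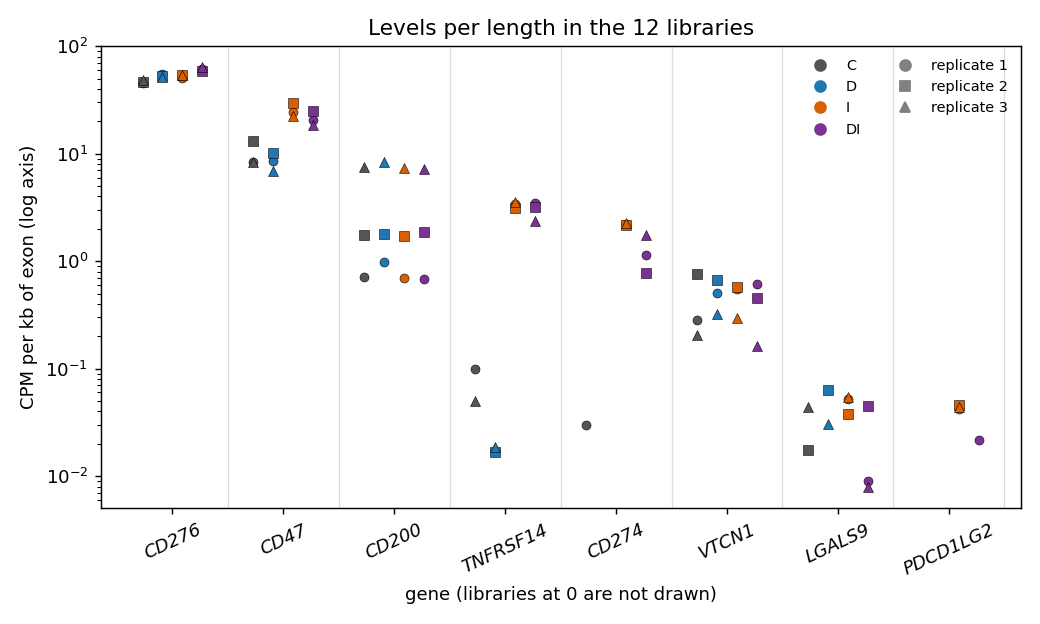
CPM per kb of exon (y axis, log scale) of each member in the 12 libraries, colored by group and with symbols for the replicate number, and with libraries at 0 left out. CD276 held the highest level in every library, and the levels of TNFRSF14 and CD274 in I and DI lay within the range of CD200.

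Doxycycline, which set the groups labeled shARID1A apart, called no member without IFNγ (D vs C, 0 of 6 by edgeR's quasi-likelihood test, 1 at an unadjusted p under 0.05, 0 by DESeq2) and none with it (DI vs I, 0 of 6, 1 at an unadjusted p under 0.05, 0 by DESeq2). Of all tested genes 1.23% were called without IFNγ (D vs C) and 0.670% with it (DI vs I), and 2248 and 1934 of the 15828 had an unadjusted p under 0.05. With the 2 groups of each comparison fitted alone edgeR called 16 genes and 0 genes (1508 at an unadjusted p under 0.05 in DI vs I). The block raised the number of genes called from 194 and 106 to 2200 and 1658 of the 15828 (13.9% and 10.5%) and still called no member. The groups did not overlap for 1 of 6 tested members in D vs C, CD276, against 19.2% of all tested genes, and for 2 of 6 in DI vs I, CD276 and CD274, against 16.6%. D vs C uses the same C libraries as I vs C, and DI vs I uses libraries of both IFNγ comparisons above, so these comparisons are not independent of each other.

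CD274 had the largest difference of any tested member between DI and I. It was 9.15, 8.84 and 9.33 CPM in I and 4.72, 3.18 and 7.21 CPM in DI. All 3 DI libraries lay below all 3 I libraries, and the DI libraries were far more spread, with a coefficient of variation of 40.3% against 2.74%. The same-numbered ratios of DI to I were 0.516, 0.360 and 0.773. The log2 fold change was -0.85 (SE 0.50, interval -1.84 to 0.13) and did not pass edgeR's quasi-likelihood test (adjusted p = 0.568), and the exact two-sided permutation test gave p = 0.1, the smallest that 3 libraries against 3 allow. Without DI replicate 3 the log2 fold change was -1.21, and without DI replicate 2 it was -0.61. In D and C, where CD274 was at or under the floor, no fold is given.

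CD276 was the most abundant member and differed in the opposite direction. It was 254, 259 and 269 CPM in C and 308, 294 and 285 CPM in D. With IFNγ alone it was 278, 297 and 298 CPM, and with both agents 339, 327 and 355 CPM. The DI libraries stood above all other libraries and the C libraries below all others, while D and I overlapped. In the fit without pairing its log2 fold change was 0.18 for D vs C (SE 0.08, edgeR adjusted p = 0.303) and 0.23 for DI vs I (SE 0.08, edgeR adjusted p = 0.249), so neither passed. With the replicate block the difference of CD276 in DI vs I came near a call but did not pass. In same-numbered pairs DI was 1.22, 1.10 and 1.19 times I, and D was 1.21, 1.14 and 1.06 times C. CD276 lies at chr15:73683966-73714518 on the plus strand.

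CD47 and TNFRSF14 differed less between DI and I than CD274 did. In the fit without pairing, CD47 was lower by a log2 fold change of -0.26 (SE 0.21, edgeR adjusted p = 0.702), with overlapping groups. The same-numbered ratios of DI to I were 0.837, 0.836 and 0.830, and with the replicate block CD47 was not called either. In D vs C its log2 fold change was -0.22 (edgeR adjusted p = 0.717), with same-numbered ratios of 1.02, 0.778 and 0.830. TNFRSF14 was 20.7 ± 1.37 CPM in I and 18.8 ± 3.59 in DI, a log2 fold change of -0.14 (interval -1.13 to 0.84, edgeR adjusted p = 0.959), and 1 of its 3 same-numbered pairs was lower in DI. Its 15 counts in C against 4 in D gave a ratio of 4.12 (interval 1.31 to 17.0, counting error only), which did not pass edgeR's test (adjusted p = 0.408). This ratio was 1.99 without C replicate 1, which held 10 of the 15 counts, 2.62 without D replicate 1 and 6.68 without C replicate 2.

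VTCN1 and CD200 gave wide intervals for doxycycline in the fit without pairing, which counts the spread between replicate numbers as error. The log2 fold change of VTCN1 was 0.26 for D vs C (interval -0.90 to 1.41) and -0.22 for DI vs I (interval -1.37 to 0.94), and its 3 same-numbered ratios of DI to I were 1.10, 0.793 and 0.556. The interval of CD200 ran from -2.12 to 2.44 without IFNγ and from -2.26 to 2.28 with it. Within same-numbered pairs its ratio of D to C was 1.35, 1.03 and 1.12, and that of DI to I was 0.988, 1.09 and 0.987. Neither gene passed edgeR's test in either comparison (adjusted p of at least 0.907).

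**Figure D3:**
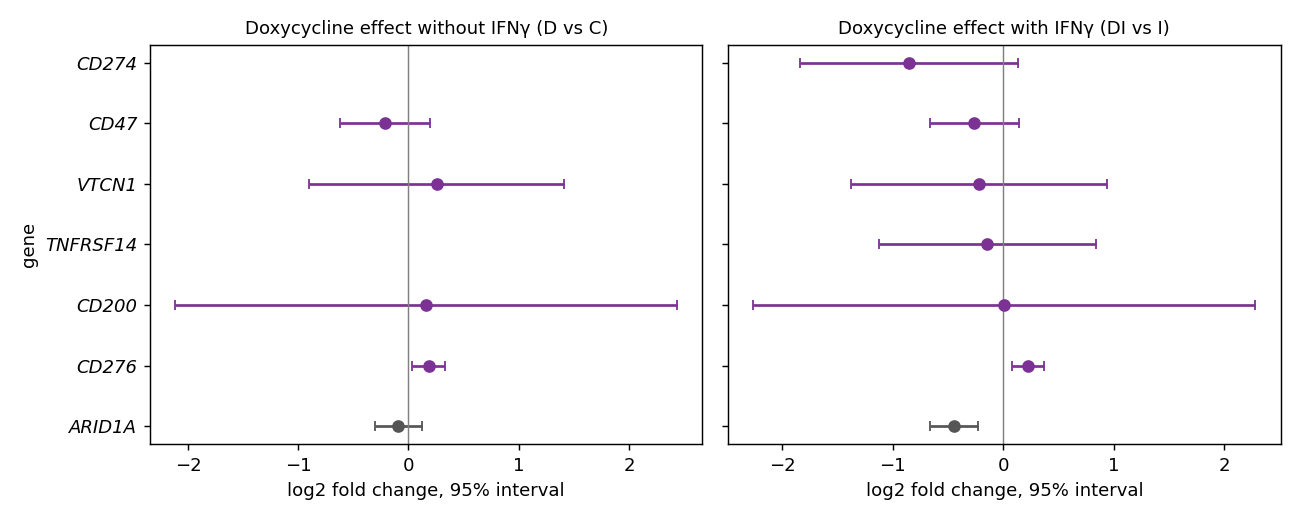
Log2 fold change with its 95% interval (x axis) for ARID1A and the tested members (y axis) in D vs C (left) and DI vs I (right), from edgeR's quasi-likelihood fit of all 12 libraries, with CD274 and TNFRSF14 left out on the left because their counts there were near 0. The intervals of CD276 lay above 0 in both panels before adjustment, and that of CD274 in DI vs I ran from -1.84 to 0.13.

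Whether the response to IFNγ itself differed with doxycycline was tested with the interaction term of the group model. No member was called (0 of 6 by edgeR, 0 at an unadjusted p under 0.05, 0 by DESeq2), and across all tested genes 0% were called, with 99 genes at an unadjusted p under 0.05 and 1 gene called by DESeq2. For CD47 the difference between the responses was -0.05 on the log2 scale (interval -0.62 to 0.53), and for CD276 it was 0.04 (interval -0.17 to 0.25). For CD274 and TNFRSF14 the size of this difference depends on counts near 0 in C and D and is not given.

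CD200 varied with the replicate number far more than with treatment. In the order of replicates 1, 2 and 3 it measured 2.15, 5.21 and 22.5 CPM in C and 2.91, 5.38 and 25.1 CPM in D. With IFNγ alone it measured 2.08, 5.07 and 22.0 CPM, and with both agents 2.05, 5.54 and 21.7 CPM. The libraries numbered 3 were highest and those numbered 1 lowest in each group, and the ranges over the 4 libraries of each number, 2.05 to 2.91, 5.07 to 5.54 and 21.7 to 25.1 CPM, did not overlap. The labels do not say what the number marks. In a model of group plus replicate number, set up after these values were seen, CD200 was 9.93-fold higher in number 3 than in number 1 (log2 fold change 3.31, SE 0.12, edgeR adjusted p = 3.78e-07) and 2.31-fold higher in number 2 than in number 1 (edgeR adjusted p = 0.000337). These comparisons called 24.3% and 19.6% of all tested genes, so a call between replicate numbers was common. Within a number, CD200 under both agents was 0.988, 1.09 and 0.987 times its level in I. CD200 lies at chr3:112332347-112362812 on the plus strand, where exons of the gene AC112487.1 overlap it on the same strand with 121 counts against 2283 in all libraries.

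VTCN1 and CD47 also moved with the replicate number, with number 2 highest and number 3 lowest on average. VTCN1 was 0.495 to 0.985 CPM in the 4 libraries numbered 3 and 1.38 to 2.28 in those numbered 2, a log2 fold change of -1.34 (SE 0.34, edgeR adjusted p = 0.00947), while 39.7% of all tested genes were called between these numbers. CD47 was lower in number 3 than in number 2 by a log2 fold change of -0.51 (SE 0.07, edgeR adjusted p = 0.00035) and higher in number 2 than in number 1 by 0.36 (edgeR adjusted p = 0.00894). CD274, CD276 and TNFRSF14 were not called between any pair of numbers. The sum of the 4 fibroblast markers also moved with the number, at 19.5 to 26.1 CPM in number 1, 35.6 to 48.2 in number 2 and 9.97 to 10.7 in number 3, most of it PDGFRA, and the 10 adrenergic markers summed to 3567 to 4062, 3841 to 4406 and 4332 to 5158 CPM. Their part in these differences was not tested.

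**Figure D4:**
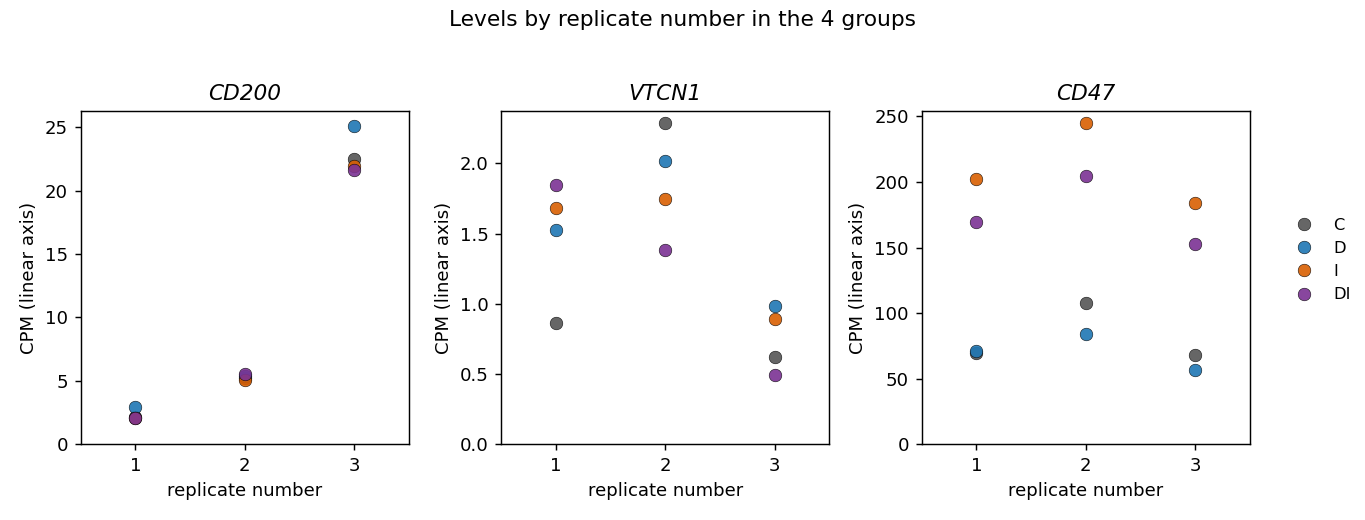
CPM (y axis, linear) of CD200, VTCN1 and CD47 against the replicate number (x axis), with 1 point for each library colored by group. The 4 groups coincide within each number for CD200, at 2.05 to 2.91, 5.07 to 5.54 and 21.7 to 25.1 CPM, whereas CD47 separates the IFNγ groups from the others at each number.

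The genes whose log2 CPM most resembled that of a member over the 12 libraries were listed by Pearson's r, as a description over libraries that share groups and replicate numbers. For CD274 these were IFIH1 (r = 0.998), an RNA sensor, and the immunoproteasome subunits PSMB8 (0.997) and PSMB9 (0.994). For TNFRSF14 they were HAPLN3 (0.995), SHFL (0.988) and BTN3A2 (0.988), and for CD47 the complement inhibitor SERPING1 (0.984), LRRTM2 (0.982) and GSTK1 (0.981). CD276 was closest to UNKL (0.942), TAB3 (0.942) and PATL1 (0.925), and VTCN1 to LINC02899 (0.945), FER (0.908) and ZNF777 (0.897). CD200 was closest to PHF2P2 (0.984), NINJ1 (0.957) and UBA1 (0.950). Among the members themselves, CD274, TNFRSF14 and CD47 had r of 0.888 to 0.977 with each other, and CD200 had r of -0.664 with VTCN1.

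Around CD274 and PDCD1LG2, 35 annotated genes started within a window reaching 500 kb beyond the pair, and 8 of them were tested, CD274 included. JAK2, the kinase of the IFNγ receptor, starts 466 kb before CD274 and rose from 4.19 ± 0.698 CPM in C to 31.0 ± 8.66 in I (log2 fold change 2.89, SE 0.27, edgeR adjusted p = 8.22e-05) and in DI vs D by 2.23 (edgeR adjusted p = 0.00064). The genes between and beyond, RLN2, PLGRKT, RIC1, ERMP1, KIAA2026 and RANBP6, were not called in either comparison, with log2 fold changes of -0.32 to 0.69 in I vs C. Of the 8, CD274 and JAK2 passed the test.

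**Figure D5:**
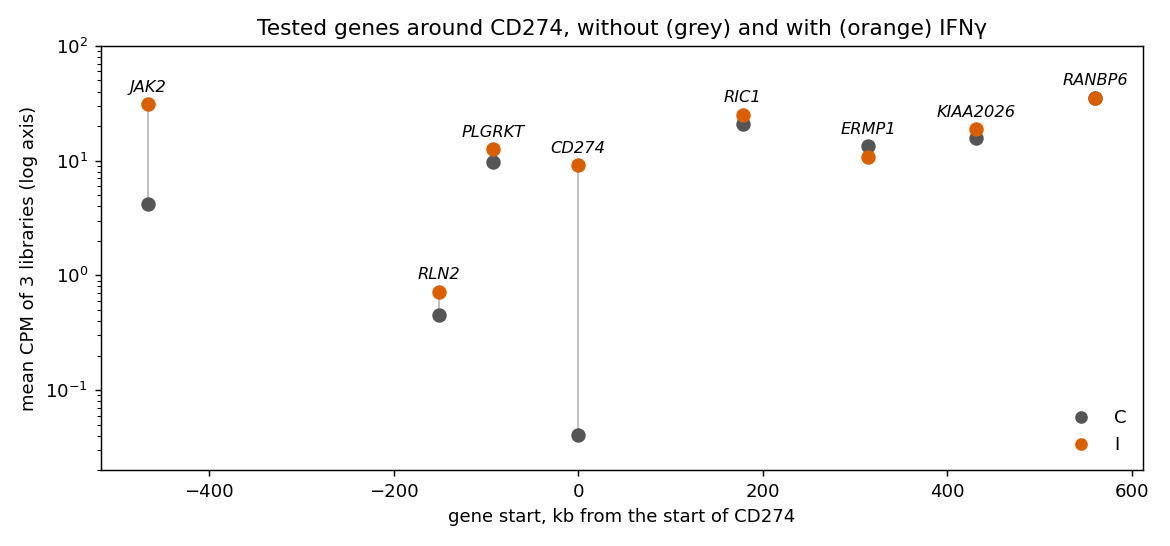
Mean CPM of 3 libraries (y axis, log scale) in C and I for the 8 tested genes around CD274, placed by the distance of their start from that of CD274 in kb (x axis). CD274 and JAK2 have widely separated points, and the other genes have log2 fold changes of -0.32 to 0.69.

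A wider list of 28 other checkpoint ligands had 17 tested genes. In both IFNγ comparisons 4 of them rose, BTN3A1, BTN3A2, BTN3A3 and BTN2A2, butyrophilins of which the BTN3A group takes part in phosphoantigen sensing by γδ T cells. Of all tested genes 2.10% were called higher in I vs C and 1.67% in DI vs D. BTN3A1 went from 0.294 ± 0.126 CPM in C to 71.1 ± 14.5 in I (edgeR adjusted p = 8.24e-07), BTN3A2 from 0.164 ± 0.284 to 71.1 ± 7.06 (7.09e-05) and BTN3A3 from 0.041 ± 0.071 to 51.4 ± 5.57 (1.81e-06), and their close sequence similarity can split reads between them. BTN2A2 rose from 2.82 ± 0.927 to 8.07 ± 0.161 CPM (log2 fold change 1.51, SE 0.30, edgeR adjusted p = 0.0218), with groups that did not overlap. Its call in I vs C was lost without C replicate 1 or 3 or any 1 of the I libraries (edgeR adjusted p of 0.0669 to 0.126), and in DI vs D without D replicate 1 or 3 or DI replicate 2 (0.0699 to 0.101) and with the 2 groups fitted alone (0.104). With the replicate block 6 of the 17 were called in both IFNγ comparisons, adding BTN2A1 (log2 fold change 0.56 in I vs C, edgeR adjusted p = 0.00444) and NECTIN2 (0.59, edgeR adjusted p = 0.00181). The block called 6.02% of all tested genes in I vs C and 4.46% in DI vs D. The median log2 fold change of the 17 was 0.25 in I vs C and 0.47 in DI vs D, against -0.01 for all tested genes in each. These values depend in part on the filter, which BTN3A1, BTN3A2 and BTN3A3 passed through their IFNγ libraries. The list was also chosen with earlier results of these data known. The classical ligands CD80 and CD48 had no count in any library.

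Doxycycline called none of these 17 genes in D vs C (3 at an unadjusted p under 0.05 by edgeR, 1 by DESeq2) or DI vs I (1 at an unadjusted p under 0.05 by edgeR, 0 by DESeq2). BTN3A1 was lowest in adjusted p in DI vs I, with 71.1 ± 14.5 CPM in I and 46.5 ± 5.87 in DI (log2 fold change -0.61, SE 0.27, edgeR adjusted p = 0.401), followed by LGALS1 (log2 fold change -1.18, SE 0.69, edgeR adjusted p = 0.558). With the block, which brought 2 of the 17 (11.8%) past the test in each comparison against 13.9% of all tested genes in D vs C and 10.5% with IFNγ present, BTN3A1 (log2 fold change -0.60, edgeR adjusted p = 0.0437) and LGALS1 (-1.46, edgeR adjusted p = 0.0113) were called in DI vs I, and LGALS1 (-1.58, edgeR adjusted p = 0.00692) and NCR3LG1 (0.65, edgeR adjusted p = 0.0247), a ligand of the NK cell receptor NKp30, in D vs C. LGALS1 encodes galectin-1, a secreted lectin that restrains T cells.

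The receptors of these ligands are mostly carried by immune cells, and 5 of 21 listed receptors were tested, PDCD1, CD160, LAG3, SIRPA and TMIGD2. None was called in any comparison without the block. With the block TMIGD2 was called without IFNγ (D vs C, log2 fold change -1.28, edgeR adjusted p = 0.0117). It was also called with IFNγ present (DI vs I, -1.03, edgeR adjusted p = 0.03). Under the block 1 of the 5 receptors (20%) was thus called for doxycycline at either IFNγ setting. Of all tested genes the block called 13.9% without IFNγ and 10.5% with it. At an unadjusted p under 0.05 the edgeR count without the block was 0 in each comparison, and DESeq2 called 0. CTLA4, ICOS and TIGIT had no count in any library. In the I libraries TMIGD2 was at 4.06 ± 2.18 CPM and SIRPA, the receptor of CD47, at 2.23 ± 0.956 CPM.

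The route from IFNγ to CD274, with regulators of PD-L1 and CD47 protein, comprised 20 genes, all tested. In I vs C and in DI vs D 8 of them rose, among them JAK2, STAT2, STAT3, IRF1, IRF2, IRF9 and SOCS1. Of all tested genes 2.10% and 1.67% were called higher, and this list too was chosen with earlier results of these data known. IRF1, a transcription factor of interferon responses, went from 2.14 ± 0.288 CPM in C to 411 ± 31.0 in I (edgeR adjusted p = 2.75e-09). SOCS1, the feedback inhibitor of JAK kinases, went from 0.881 ± 0.661 to 51.5 ± 5.10 CPM (edgeR adjusted p = 3.88e-05), and STAT2 rose by 2.51 on the log2 scale (SE 0.21, edgeR adjusted p = 2.92e-05). The receptor chain IFNGR1 was not called, with a log2 fold change of 0.03, nor was CMTM6, which stabilizes PD-L1 protein, at 0.01. The call of IRF9 in DI vs D was lost without D replicate 3 (edgeR adjusted p = 0.0534). With the replicate block 11 genes were called in I vs C, adding IFNGR2, QPCTL and MYCN, and 10 in DI vs D, adding CMTM4 and MYCN. Of all tested genes the block called 6.02% in I vs C and 4.46% in DI vs D.

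In D vs C none of the 20 was called by edgeR (2 at an unadjusted p under 0.05, 1 by DESeq2, IRF9), nor in DI vs I (5 at an unadjusted p under 0.05, 1 by DESeq2, ARID1A). Across the 15828 tested genes, 2248 and 1934 were at an unadjusted p under 0.05 by edgeR in these comparisons. JAK2 was 31.0 ± 8.66 CPM in I and 19.8 ± 4.35 in DI (log2 fold change -0.65, SE 0.25, edgeR adjusted p = 0.325), with overlapping groups. With the block, 3 of the 20 genes (15.0%, against 13.9% of all tested genes) were called in D vs C, IRF9 (log2 fold change 1.42, edgeR adjusted p = 0.0259), CMTM4 (0.43, edgeR adjusted p = 0.00628) and THBS1 (1.52, edgeR adjusted p = 0.041), and ARID1A in DI vs I. ARID1A was 1 of the 20 (5%) there, against 10.5% of all tested genes. The genes called with the block or by DESeq2 are named here because of that call.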

How the data were processed

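Raw counts per gene were deposited by the authors. Per the labels the reads were Illumina paired-end, and the aligner, counting tool, strand setting and annotation are not given in the sources used here. The authors also deposited 3 tables of their own DESeq2 comparisons, which were not used, nor were 18 per-library columns in them whose names no label explains. Groups came from the sample titles. Positions and exon lengths came from GENCODE 29 (GRCh38), which holds all 43769 identifiers of the table.

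With edgeR 4.0.16 in R 4.3.3, genes of low count were removed by filterByExpr (minimum count 10), TMM factors were set, and all 12 libraries entered a single quasi-likelihood fit with group as its only term. Tests were two-sided and BH adjusted over the 15828 genes left, with calls at an adjusted p under 0.05. CPM used TMM-scaled library sizes. DESeq2 1.42.0 was an alternative. Ratios of low counts carry exact 95% binomial intervals, and these intervals and the floors cover counting error only. The 95% intervals of log2 fold changes are normal intervals from the estimate and its SE in the quasi-likelihood fit, and include the spread between libraries. They make no allowance for the few libraries, so they can exclude 0 where the unadjusted p is above 0.05. Likeness between genes used log2 CPM with a prior count of 2. The fit was checked on simulated data.

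Named genes were the members, ARID1A, of each list the 4 tested genes with the smallest adjusted p in I vs C and the 2 smallest in DI vs I, the 3 genes nearest in pattern to each member with a group mean of at least 1 CPM, and tested genes within 500 kb of the CD274 and PDCD1LG2 pair. Other genes named were chosen after their values were seen. Some genes that this rule or the lists hold are not reported here. The members and lists were chosen with earlier results of these data known. Libraries with the same replicate number deviated together from their group means (r of 0.338 to 0.804 over 18 pairs, against -0.628 to 0.143 over 36 pairs with other numbers), so the numbers were taken to pair them from the data, since the labels do not say what a number marks. Nothing says that replicates were separate cultures, so p-values measure the spread between these libraries, which may be technical.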

Additional observations from a re-analysis of the deposited data

How the results depend on the processing

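The calls of CD274, TNFRSF14 and CD47 in both IFNγ comparisons, and the absence of a call for every other tested member and comparison, held under each alternative that gave a value: DESeq2's size factors, library size alone, no filter, the replicate block, fits of the 2 groups alone, DESeq2's test, each library left out, and the sum of TNFRSF14 and its antisense gene. The sum of LGALS9 and its copies stayed below the filter and gave no value. With the replicate block the nearest members were CD276 in DI vs I (adjusted p = 0.0509) and CD47 (adjusted p = 0.0708). The block changed the call of ARID1A in DI vs I and raised list counts from 0, to 2 other ligands, 1 receptor and 3 route genes in D vs C, and to 2, 1 and 1 in DI vs I. It also raised the other ligands from 4 to 6 in both IFNγ comparisons and the route genes from 8 to 11 in I vs C and to 10 in DI vs D, and it changed no call of a member. Leaving 1 library out cost BTN2A2 its call in 5 of 6 fits of I vs C and 3 of 6 of DI vs D, and IRF9 its call in 1 of 6 of DI vs D. Across all genes, doxycycline comparisons without and with IFNγ called 16 and 0 with the 2 groups alone, 649 and 446 by DESeq2 and 119 and 84 without the filter, from 194 and 106. DESeq2 called 1 other ligand (BTN3A2, with 8 counts in C, all of them in replicate 1, and 0 in D) and 1 route gene in D vs C and 1 route gene in DI vs I. Leaving 1 library out turned the sign of 12 log2 fold changes, none of them called. CD200 ranged from -1.49 to 1.39 in I vs C, -1.55 to 1.24 in DI vs D, -1.26 to 1.58 in D vs C, -1.35 to 1.46 in DI vs I and -1.57 to 1.31 in the interaction. VTCN1 ranged from -0.13 to 0.94, -0.69 to 0.096, -0.066 to 1.01 and -0.62 to 0.16 in the first 4 of these. CD47 ranged from -0.36 to 0.025 in D vs C and -0.27 to 0.099 in the interaction, and TNFRSF14 from -0.26 to 0.00013 in DI vs I. The cause was not tested. With number 3 left out of I and DI, a setting chosen after seeing the data, CD274 was at -1.19 in DI vs I (adjusted p = 0.935). Low counts limit what can be said of PDCD1LG2 and LGALS9, whose largest counts in a library were 2 and 7.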
